A study of Mus musculus with 80 samples.

Results

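Ribosome biogenesis factors are the proteins that make ribosomes without staying in them. The 40 genes described here were taken by symbol from a list of such factors. All 40 were found among the 12853 genes of the male table and the 11068 genes of the female table. The list was chosen with earlier results of these data known. Shares of members set beside those of all genes therefore describe the list and are no independent test. The samples were gastrocnemius muscles, from the calf, of male and female C57BL6/J mice. Mice labelled HU had their hindlimbs unloaded for 24, 48, 72 or 168 h, which takes the weight of the body off the muscle and starts atrophy, and control mice were labelled 0 h. There were 8 female libraries in each group but the last, which had 7. Male groups held 7 libraries of controls, 8 after 24 h, 9 after 48 h, 9 after 72 h and 8 after 168 h. The labels do not name the animal behind each library, so p-values measure the spread between these libraries. No transgene or drug is named, and the labels give no age. Whole muscle was used, so fewer cells of a type and less RNA per cell cannot be told apart. The design asks how transcript levels move with the time of unloading in each sex and whether that course differs between females and males.

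Ribosome production starts in the nucleolus, where RNA polymerase I copies the ribosomal DNA into a long precursor. Small nucleolar ribonucleoproteins (snoRNPs) modify this RNA, the small subunit (SSU) processome folds and cuts the part that goes into the small subunit, and other factors assemble the large subunit and finish both subunits in the cytoplasm. Making ribosomes costs a cell much of its energy, and in skeletal muscle the pathway is best known for rising when a muscle grows under load. The transcription factor Myc, which binds the E-box sequence CACGTG, is a known activator of many of these genes.

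The values are a normalized signal, that is, estimated reads per gene divided by one factor per library, as the authors deposited them. Estimated depth was 5.56 to 50.5 M reads per female library and 18.0 to 49.7 M per male library, where 1 M is 1e+06 reads. Female libraries of 24 h (6.41 to 11.8 M) and 72 h (5.56 to 9.63 M) were shallower than those of 0 h (25.6 to 50.5 M). The library titles carry S numbers, whose runs fall into 3 sets per sex. Both female 48 h and female 0 h lie in 1 set, as do male 168 h and male 0 h. For females at 24, 72 and 168 h and for males at 24 and 48 h, the set changes together with the time of unloading, so that set and time cannot be told apart there. Of the 9 male 72 h libraries, 2 lie in the set of the male 0 h libraries. In 7 female libraries and no male library, the median Spearman correlation with the own group was under 0.95; these libraries stand apart. All 6 muscle fibre markers were measured in both tables, with a summed signal of at least 1.06e+06 in every library. In females 2 of the 6 were called lower at 48 h (median log2 change -0.25) and 2 at 72 h (-0.21), and 1 was called in each direction at 168 h. In males 1 was called higher at 24, 72 and 168 h each, and 1 lower at 168 h. None of the 5 neutrophil markers was measured, and 1 lymphocyte marker was measured in males only. A gene not measured is absent from the deposited table, whose genes all reach a signal of 100 in at least 1 library. Of 5 fibroblast markers, 3 were called lower in females at each time, while 2 lay above 0 without a call at 24, 48 and 168 h. The median summed signal of the 5 was 13330.1, 12384, 10356 and 13158 after 24, 48, 72 and 168 h against 16969 in female controls. In males 1 was called higher at 48 h and 2 lower at 168 h. Of 5 endothelial markers, 1 was called lower in females at each time and 1 higher at 24 h. In males 2 were called higher and 1 lower at 24 and 48 h, 1 higher at 72 h and 1 in each direction at 168 h. Of 7 macrophage markers none was called in males, and in females 1 was higher at 48 and 168 h each and 1 lower at 72 h. The part of these markers in the results was not tested.

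Many ribosome biogenesis factors were higher than in controls after 24 and 48 h of unloading, and the fewest were called at 168 h in females and at 72 h in males. In females the counts of 24 and 72 h have no firm order. At 72 h there were 16 calls and at 24 h 4 with library total scaling, 9 and 5 with quantile normalization and 17 and 15 without the libraries that stand apart. The shares of all genes called higher moved too, being 22% and 8.25%, 15.2% and 10.5%, and 22.8% and 16.8% in these settings. Other settings had more calls at 24 h. With only the groups compared there were 18 calls at 24 h and 10 at 72 h, beside 13.3% and 17% of all genes called higher. Array weights gave 21 and 19 (20.8% and 22.8% of all genes), and a mean of at least 100 gave 13 and 11 (15.2% and 18.6%). The median change of the members between 72 h and 24 h was 0.0001. In females 12 of the 40 members were called higher after 24 h and 23 after 48 h. The count was 11 after 72 h and 2 after 168 h, and none was called lower. A call means an adjusted p under 0.05 in limma over all genes of the table, against 0 h. Over all genes of the female table, 13.8%, 21%, 16.8% and 6.3% were called higher at these times. In males 21 members were called higher after 24 h and 19 after 48 h. The male count was 3 after 72 h and 9 after 168 h. Over all genes of the male table, 14.8%, 16.3%, 5.61% and 11% were called higher at 24, 48, 72 and 168 h. Counting both directions, 24.7%, 38.1%, 30% and 10.7% of all genes were called in females, and 29.1%, 31%, 10.8% and 22.5% in males. Genes called lower made up 10.9%, 17.1%, 13.2% and 4.38% of the female table, against 0 members, and 14.4%, 14.7%, 5.22% and 11.5% of the male table. The share of members called higher was therefore 57.5% against 21% of all genes in females at 48 h, and 52.5% against 14.8% in males at 24 h, but it was near the share of all genes in males at 72 h (7.5% against 5.61%) and in females at 168 h (5% against 6.3%). A single member, Dkc1, was called lower, in males at 24 and 72 h.

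The median log2 change over the 40 members was 0.25, 0.36, 0.23 and 0.09 in females at 24, 48, 72 and 168 h, beside 0.06, 0.06, 0.03 and 0.05 over all genes. In males it was 0.21, 0.20, 0.01 and 0.14, beside medians of at most 0.01 in size over all genes. The highest change of a member fell at 48 h for 25 of 40 members in females and for 20 of 40 in males. In males 13 more had it at 24 h, and in females 9 more had it at 72 h. The share of all genes called higher was also largest at 48 h in both tables (21% in females and 16.3% in males). The time of the highest change was not counted over all genes, so a peak at 48 h is not shown to be particular to the members. Across all 4 times, 21 members were called higher at least once in both tables, 4 in females alone, 3 in males alone and 12 in neither. That is 52.5%, 10%, 7.5% and 30% of the members, beside 18.4%, 9.2%, 5.96% and 66.4% of the 10964 genes measured in both tables. At 48 h the tables shared 17 called members, 42.5% of the 40, beside 13.6% of the genes measured in both tables. These are 73.9% of the female and 89.5% of the male calls. Of all genes measured in both tables, 1490 were called in both, 828 in females alone and 484 in males alone at that time. At 72 h the tables shared 3 members, which are 27.3% of the female and 100% of the male calls. However, 3 of 40 members (7.5%) is near the 4.82% of genes measured in both tables that were called higher in both.

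**Figure D1:**
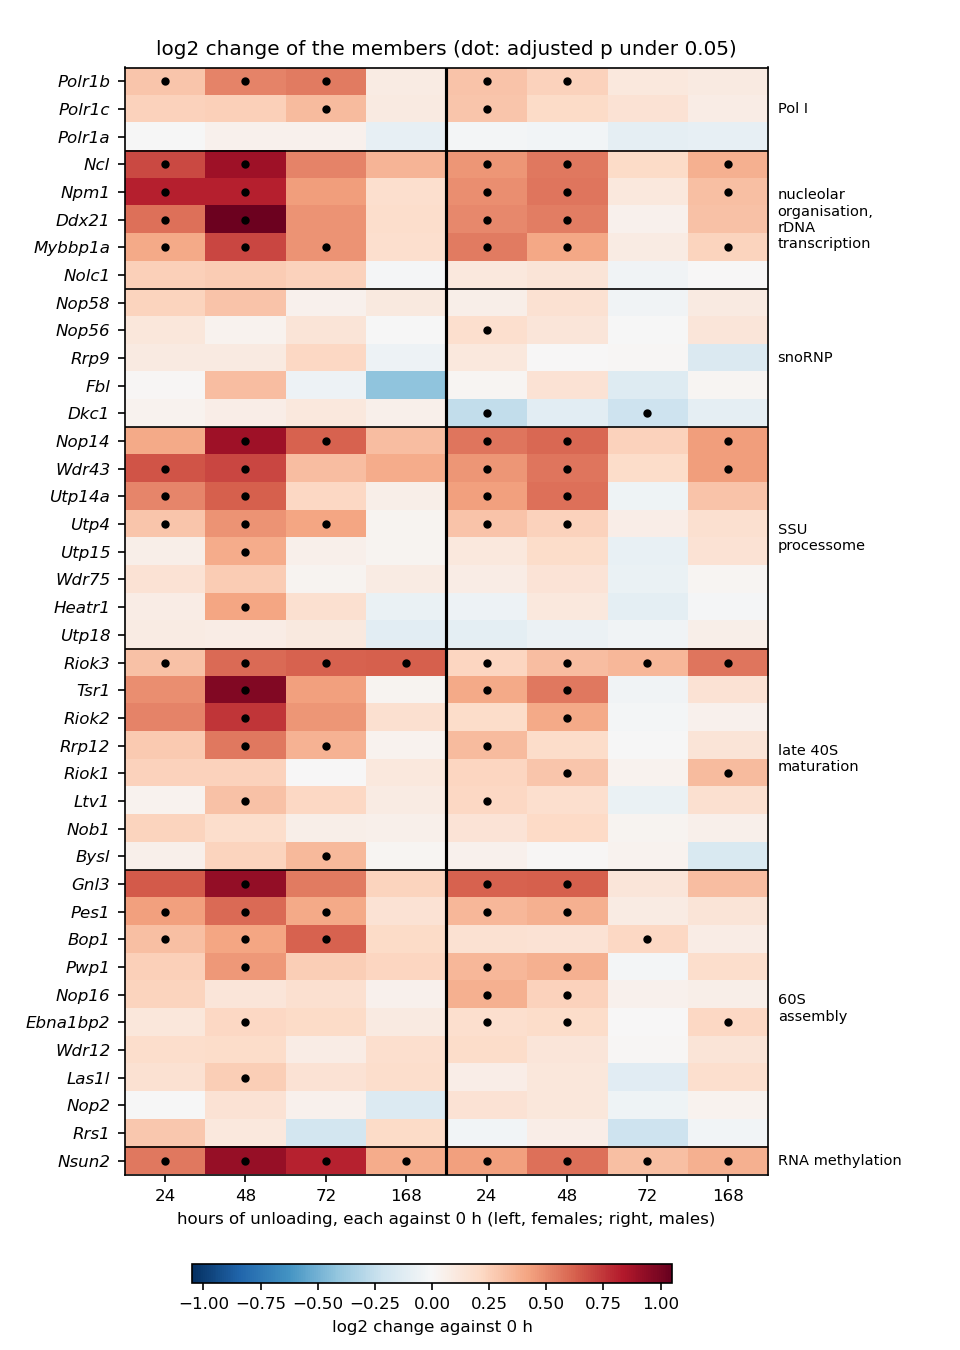
Log2 change of each of the 40 members against 0 h at 24, 48, 72 and 168 h, females in the left and males in the right columns, with members grouped by their step in ribosome production and a dot where the adjusted p was under 0.05. Red, a level higher than at 0 h, is deepest at 48 h in females, where Ddx21 reached 1.03, and the male 72 h column is nearly without dots.

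Within a single library set the members were called higher too. Female 48 h and 0 h libraries share a set, and 23 members (57.5%) were called higher there, beside 21% of all genes. Male 168 h and 0 h libraries share a set, and 9 members were called there, beside 11% of all genes. Between male 48 h and 24 h, which lie in 1 set but for 1 library, no member was called in limma, and 0% of all genes were called higher and 0.0156% lower; at an unadjusted p under 0.05 1224 genes of the table differed. Without that library no member was called either. Between female 72 h and 24 h, again within a set, Nsun2 was higher by 0.25 ± 0.08 (SE, adjusted p = 0.036) and Rrs1 was lower, with a change of -0.47 ± 0.15 (SE, adjusted p = 0.029), where 6.41% of all genes were called higher and 5.85% lower (12.3% in either direction). The Nsun2 call was lost in 5 of 16 fits that left out a library and the Rrs1 call in 6 of 16: 0 members were called without 24 h replicate 1, 1 without 24 h replicate 2 or 5 or 72 h replicate 1, 2 or 6, and 4 without 72 h replicate 8.

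Other counts moved with single libraries as well. The female 24 h count of 12 was 7 without 0 h replicate 1, without 0 h replicate 4 or without 24 h replicate 3, and 6 without 24 h replicate 6. It was 4 when the values were scaled to the library total and 5 after quantile normalization, where the calls of Ncl, Mybbp1a, Ddx21, Bop1, Polr1b, Riok3 and Utp4 were lost under both. The share of members called higher was then 10% beside 8.25% of all genes, and 12.5% beside 10.5%, so that under either scaling the female 24 h share was near that of all genes. The female 72 h count of 11 was 17 without 72 h replicate 5. It was also 17 (42.5%) without the 7 libraries that stand apart, beside 22.8% of all genes. The 4 male calls at 72 h were 2 without 0 h replicate 1, 2 or 5 and without 72 h replicate 1, 6 or 9. Female 48 h (18 to 25 members), male 24 h (18 to 23), male 48 h (18 to 20) and male 168 h (8 to 12) moved by less than 1.5 times.

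**Figure D2:**
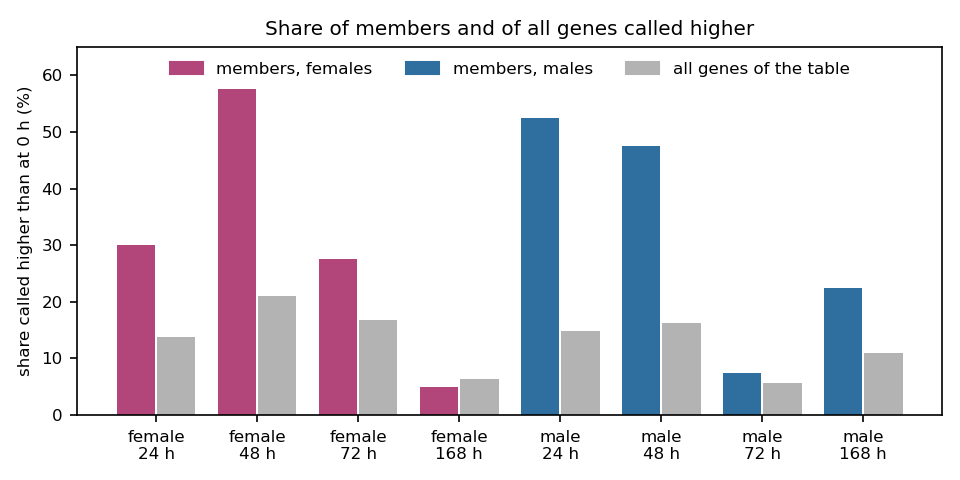
Share of the 40 members (coloured bars) and of all genes of the same table (grey bars) called higher than at 0 h, in percent, for each time of unloading in females and males. The member bars stand above the grey bars at 24 and 48 h in both sexes, though with library total scaling the female 24 h shares were 10% and 8.25%, and close to them in females at 168 h (5% against 6.3%) and in males at 72 h (7.5% against 5.61%).

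The promoters of 34 members are in the RefSeq promoter table of GRCm38.p6, which gives 250 bases before and 50 bases from the annotated start of each gene. Those of Riok3, Bop1, Rrp12, Fbl, Npm1 and Rrs1 are not shown or counted here. The letters CACGTG, which read the same on both strands, occur in 8 of the 34 windows (23.5%), against 12.6% of 8046 genes measured in both tables and 8.09% of all 27025 genes of the promoter table. Among members called higher in at least 1 table they occur in 6 of 24, and among members called in neither table in 2 of 10. A second motif, CCGGAAG on either strand, the core of sites for ETS family factors, occurs in 11 of 34 windows (32.4%), against 21.3% of genes measured in both tables and 9.93% of all; no CCGGAAG match overlaps a CACGTG match in a member. Median GC content of the windows was 57.7% for the members and 61.3% for genes measured in both tables. A match describes these letters and is not evidence of binding. The 4 stretches below, from members called higher in both tables, are shown because their CACGTG lies just after the start; each runs from 100 bases before to 30 bases from the start, 5′ to 3′ on the gene's strand (the plus strand in all), with CACGTG in capitals. They lie at chr11:3963875-3964004 (Pes1), chr11:74897980-74898109 (Tsr1), chr8:106893540-106893669 (Utp4) and chr17:71616115-71616244 (Wdr43), and counted from 1 at the start the motif begins at base 3 in Pes1, 25 in Tsr1, 16 in Utp4 and 18 in Wdr43.
Pes1: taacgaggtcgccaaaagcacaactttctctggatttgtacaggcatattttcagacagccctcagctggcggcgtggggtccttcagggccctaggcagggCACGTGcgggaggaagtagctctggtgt
Tsr1: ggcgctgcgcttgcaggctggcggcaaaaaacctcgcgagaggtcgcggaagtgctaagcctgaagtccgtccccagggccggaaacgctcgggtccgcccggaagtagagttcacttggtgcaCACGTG
Utp4: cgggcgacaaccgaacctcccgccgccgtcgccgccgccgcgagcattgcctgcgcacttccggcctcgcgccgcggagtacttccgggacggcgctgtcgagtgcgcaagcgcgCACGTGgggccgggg
Wdr43: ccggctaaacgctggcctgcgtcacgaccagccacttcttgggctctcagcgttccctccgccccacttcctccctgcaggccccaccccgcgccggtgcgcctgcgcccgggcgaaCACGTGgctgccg
Of these 4 genes, Pes1 was called higher at 24, 48 and 72 h in females and at 24 and 48 h in males. Utp4 was called at the same times as Pes1. Tsr1 was called at 48 h in females and at 24 and 48 h in males, and Wdr43 at 24 and 48 h in females and at 24, 48 and 168 h in males.

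Of the 3 subunits of RNA polymerase I, the second largest, Polr1b (ENSMUSG00000027395, chromosome 2, 128942915 to 128968515), was called most often. The chromosome positions given here are those of the deposited tables. With the last base read as exclusive, the lengths of all 40 members match the GRCm38 annotation. None of the starts does, so they are not GRCm38 positions. The submitters' notes name both mm10 and mm39, and the positions were not compared with an mm39 annotation. In females the lowest, median and highest Polr1b signal was 197, 239 and 274 in controls, 254, 294 and 354 after 24 h, 275, 317 and 455 after 48 h, 291, 359 and 407 after 72 h and 229, 243 and 301 after 168 h. The male values were 518, 573 and 638 in controls, 568.2, 693 and 880.4 after 24 h, 573, 670.2 and 808 after 48 h, 565, 608 and 714 after 72 h and 514, 621 and 684 after 168 h. All female libraries of 48 and 72 h lay above the highest female 0 h library, whereas male libraries overlapped with their controls at every time. The log2 change was 0.29 ± 0.10 (SE, adjusted p = 0.026) after 24 h and 0.52 ± 0.10 (SE, adjusted p = 6.2e-05) after 48 h in females. Later it was 0.54 ± 0.10 (SE, adjusted p = 5.0e-05) after 72 h and 0.08 ± 0.10 (SE, adjusted p = 0.68) after 168 h. For males this was 0.30 ± 0.08 (SE, adjusted p = 0.0027) after 24 h and 0.24 ± 0.07 (SE, adjusted p = 0.013) after 48 h. At the last times it was 0.11 ± 0.07 (SE, adjusted p = 0.36) after 72 h and 0.10 ± 0.08 (SE, adjusted p = 0.38) after 168 h. Polr1c, a subunit shared with RNA polymerase III, was called higher in females at 72 h (0.34) and in males at 24 h (0.29). The female call was lost in 8 of 16 fits that left out a library, with a highest adjusted p of 0.12 in limma without 72 h replicate 4. Polr1a, the largest subunit and part of the active site, was not called at any time, with log2 changes of -0.01 (24 h), 0.04 (48 h), 0.05 (72 h) and -0.09 (168 h) in females and -0.02 (24 h), -0.03 (48 h), -0.10 (72 h) and -0.08 (168 h) in males.

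Among the 5 proteins of nucleolar organisation and ribosomal DNA transcription, 4 were called higher at 24 and 48 h in both sexes: Ncl, Npm1, Ddx21 and Mybbp1a. That is 80% each time, beside 13.8% and 21% of all genes in females and 14.8% and 16.3% in males. Nolc1, a chaperone of snoRNPs, was called at no time, with changes of 0.25 (24 h), 0.26 (48 h), 0.24 (72 h) and -0.01 (168 h) in females and 0.11 (24 h), 0.13 (48 h), -0.04 (72 h) and 0.01 (168 h) in males. Nucleolin (Ncl, ENSMUSG00000026234, chromosome 1, 86272441 to 86287123) is an abundant nucleolar RNA-binding protein that acts in ribosomal DNA transcription and in processing of the precursor RNA. Its signal in females was 1259.98, 2888 and 3209 in controls, 3517, 3999 and 4516 after 24 h, 1906, 4695 and 7119.7 after 48 h, 1099.99, 4158 and 6765 after 72 h and 2139.6, 3391 and 3600.3 after 168 h (lowest, median and highest). Male values were 7173, 7349.7 and 8072 in controls, 7708, 10552 and 12065 after 24 h, 9272, 10499.6 and 13117 after 48 h, 7545, 8287 and 9824 after 72 h and 8386, 9589.95 and 10929 after 168 h. A library that stands apart held the lowest female value at every time, and all 8 female 24 h libraries still lay above the highest control. In males all 48 h and all 168 h libraries lay above the highest 0 h library. Log2 changes of Ncl were 0.70 ± 0.25 (SE, adjusted p = 0.034) after 24 h and 0.89 ± 0.25 (SE, adjusted p = 0.0041) after 48 h in females. From 72 h on it was 0.52 ± 0.25 (SE, adjusted p = 0.11) after 72 h and 0.36 ± 0.25 (SE, adjusted p = 0.43) after 168 h. In males they were 0.46 ± 0.08 (SE, adjusted p = 4.0e-05) after 24 h and 0.55 ± 0.08 (SE, adjusted p = 1.7e-06) after 48 h. At the later times it came to 0.20 ± 0.08 (SE, adjusted p = 0.098) after 72 h and 0.37 ± 0.08 (SE, adjusted p = 9.6e-04) after 168 h. Without the libraries that stand apart, the female change at 72 h was 0.74 and was called, with an adjusted p of 6.9e-05 in limma. The female call at 24 h was lost on leaving out 0 h replicate 4 or 7 or 24 h replicate 3 or 6, and under both other scalings.

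Mybbp1a (ENSMUSG00000040463, chromosome 11, 72332181 to 72342595), a nucleolar protein tied to the transcription of ribosomal DNA, had a signal of 1025, 1193 and 1308 in controls, 1133, 1536 and 1829 after 24 h, 1257, 1860.3 and 2807 after 48 h, 1270.3, 1528 and 2639 after 72 h and 1138, 1248 and 1559.7 after 168 h in females (lowest, median and highest). In males it had 2425, 2718 and 2869.8 in controls, 3475, 3795 and 4624 after 24 h, 2773, 3480.2 and 4696 after 48 h, 2569, 2888 and 3167 after 72 h and 2847, 3150.5 and 3763 after 168 h. Every male 24 h library lay above the highest male control, and at 168 h 6 of 8 did; female ranges overlapped with those of the controls at every time. The log2 change was 0.40 ± 0.14 (SE, adjusted p = 0.029) after 24 h and 0.70 ± 0.14 (SE, adjusted p = 9.5e-05) after 48 h in females. Thereafter it was 0.47 ± 0.14 (SE, adjusted p = 0.0081) after 72 h and 0.17 ± 0.14 (SE, adjusted p = 0.5) after 168 h. Among males it was 0.54 ± 0.08 (SE, adjusted p = 4.9e-06) after 24 h and 0.40 ± 0.08 (SE, adjusted p = 1.6e-04) after 48 h. Later it was 0.09 ± 0.08 (SE, adjusted p = 0.54) after 72 h and 0.24 ± 0.08 (SE, adjusted p = 0.032) after 168 h. Its call in females at 24 h was lost without 0 h replicate 1 or 5 or 24 h replicate 3, 6 or 8, and its call in males at 168 h without 0 h replicate 1 or 4 or 168 h replicate 3 or 8. Npm1, or nucleophosmin, a chaperone and scaffold of the nucleolus, had log2 changes of 0.82 (24 h), 0.81 (48 h), 0.44 (72 h) and 0.18 (168 h) in females, where the first 2 times were called, and of 0.49 (24 h), 0.56 (48 h), 0.11 (72 h) and 0.31 (168 h) in males, where all but 72 h were called.

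Ddx21, an RNA helicase that couples ribosomal RNA synthesis to its processing, had the largest single change of any member. It and Gnl3 below were picked for a full account after their values had been seen. In females the Ddx21 signal was 619, 815 and 929 in controls, 879, 1213 and 1527 after 24 h, 1046, 1401 and 3382 after 48 h, 533, 1094 and 2391 after 72 h and 659, 895 and 1180.5 after 168 h (lowest, median and highest). In the male table it was 1909.6, 2031 and 2156 in controls, 2225, 2822 and 3872 after 24 h, 2353, 2754 and 4195 after 48 h, 1716, 2158 and 2324 after 72 h and 1809, 2485 and 3569.6 after 168 h. All 8 female 48 h libraries and all male 24 h and 48 h libraries lay above the highest control of their table. At 48 h its level was 2.04-fold that of 0 h in females, a log2 change of 1.03 ± 0.21 (SE, adjusted p = 2.2e-04), on the scale of log2 of the signal plus 1. The other changes were 0.58 (24 h), 0.47 (72 h) and 0.19 (168 h) in females, of which the first was called but lost in 11 of 16 fits that left out a library, and 0.51 (24 h), 0.54 (48 h), 0.04 (72 h) and 0.31 (168 h) in males, of which the first 2 were called.

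**Figure D3:**
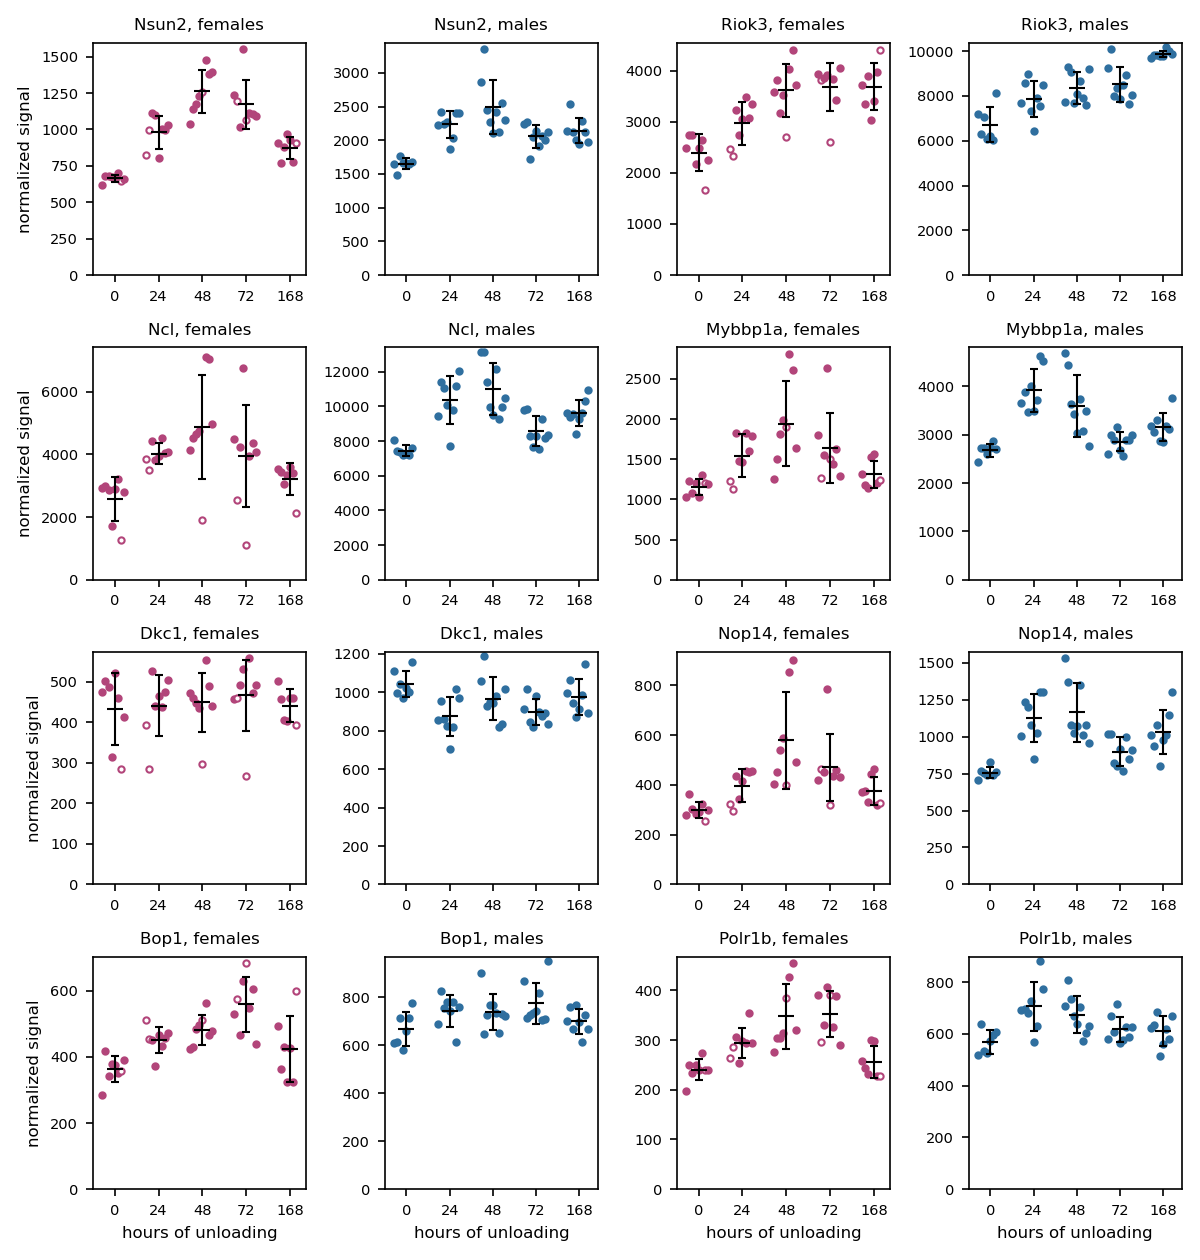
Normalized signal of 8 members in every library by hours of unloading, females to the left of males for each gene; points are libraries, open points are the libraries that stand apart, and bars give the mean and SD. Nsun2 and Riok3 have a mean above that of 0 h at every later time in both sexes, while 7 of 9 male 72 h libraries lie below the lowest male control for Dkc1.

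The 5 snoRNP proteins are too few to set their counts apart from the shares of all genes. In males at 24 h 20% of them were called higher, beside 14.8% of all genes, and in females at 48 h 0%, beside 21%. Of other snoRNP genes in the wider list below, 4 of 11 (36.4%) were called higher in males at 24 h and 2 of 10 (20%) in females at 48 h. None of the 5 members was called in females at any time, and in males Nop56 was called higher at 24 h (0.18) and Dkc1 lower at 24 and 72 h. The Nop56 call was lost in 8 of 15 fits that left out a library, with adjusted p up to 0.14 in limma, under library total scaling and with only the groups compared. Fibrillarin (Fbl), the methyltransferase of box C/D snoRNPs, had log2 changes of 0.01 (24 h), 0.33 (48 h), -0.06 (72 h) and -0.43 (168 h) in females and of 0.02 (24 h), 0.15 (48 h), -0.14 (72 h) and 0.02 (168 h) in males. Nop58, which with Nop56 forms the core of these particles, had log2 changes of 0.23 (24 h), 0.30 (48 h), 0.04 (72 h) and 0.10 (168 h) in females and of 0.06 (24 h), 0.16 (48 h), -0.04 (72 h) and 0.09 (168 h) in males. Rrp9, a protein of the U3 snoRNP, had log2 changes of 0.09 (24 h), 0.10 (48 h), 0.22 (72 h) and -0.05 (168 h) in females and of 0.11 (24 h), 0.01 (48 h), 0.01 (72 h) and -0.15 (168 h) in males. The female value of Fbl at 168 h was called lower in 2 other settings, with array weights (-0.42, adjusted p = 0.016 in limma) and with only the groups compared (-0.43, adjusted p = 0.041). A p that misses the threshold does not show that these genes stayed level.

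Dkc1 (ENSMUSG00000031403, chromosome X, 74139460 to 74153384), or dyskerin, is the pseudouridine synthase of H/ACA snoRNPs and also part of telomerase. Its signal in males was 969, 1024 and 1159 in controls, 705, 859 and 1017 after 24 h, 819, 948 and 1187 after 48 h, 818, 894 and 1019.8 after 72 h and 872, 968 and 1149 after 168 h (lowest, median and highest). In females it was 284, 467 and 521 in controls, 284, 451 and 525.6 after 24 h, 297, 452 and 553 after 48 h, 267, 482 and 559 after 72 h and 393, 458 and 502 after 168 h. All 8 male 24 h libraries and all 9 male 72 h libraries lay below the male 0 h mean, although the ranges overlap. The log2 change in males was -0.26 ± 0.07 (SE, adjusted p = 0.0071) after 24 h and -0.11 ± 0.07 (SE, adjusted p = 0.23) after 48 h. At the last times it was -0.22 ± 0.07 (SE, adjusted p = 0.042) after 72 h and -0.10 ± 0.07 (SE, adjusted p = 0.36) after 168 h. In females it was 0.04 ± 0.14 (SE, adjusted p = 0.88) after 24 h and 0.07 ± 0.14 (SE, adjusted p = 0.73) after 48 h. From 72 h on it was 0.11 ± 0.14 (SE, adjusted p = 0.58) after 72 h and 0.05 ± 0.14 (SE, adjusted p = 0.87) after 168 h. The male call at 72 h was lost in 13 of 16 fits that leave out a library, with adjusted p from 0.050 to 0.091, and under library total scaling (-0.19, adjusted p = 0.11 in limma). With only the 2 male 72 h libraries of the 0 h set it was -0.11, with an adjusted p of 0.68. The call at 24 h held in every fit that left out a library, with a highest adjusted p of 0.022, but set and time cannot be told apart there.

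Of the 8 SSU processome proteins, 3, 6, 2 and 0 were called higher in females after 24, 48, 72 and 168 h, and 4, 4, 0 and 2 in males. The female shares were 37.5%, 75%, 25% and 0%, beside 13.8%, 21%, 16.8% and 6.3% of all genes. Male shares were 50%, 50%, 0% and 25%, beside 14.8%, 16.3%, 5.61% and 11%. At 72 and 168 h these counts are too small to set apart from all genes. Nop14 (ENSMUSG00000036693, chromosome 5, 34795880 to 34817493), needed in yeast for cutting the precursor of the small subunit RNA, had a signal of 253, 295 and 363 in controls, 293, 424 and 455 after 24 h, 399.8, 517 and 902 after 48 h, 319, 445 and 786 after 72 h and 320.3, 370.4 and 463 after 168 h in females (lowest, median and highest). In males it had 706, 755 and 825 in controls, 848, 1140.3 and 1303 after 24 h, 959, 1077 and 1532 after 48 h, 765, 908 and 1018 after 72 h and 803, 1010.5 and 1300.3 after 168 h. All female 48 h libraries and all male 24 h and 48 h libraries exceeded the highest control of their table. The change was 0.39 ± 0.15 (SE, adjusted p = 0.051) after 24 h and 0.89 ± 0.15 (SE, adjusted p = 1.4e-05) after 48 h in females. At the later times it came to 0.62 ± 0.15 (SE, adjusted p = 0.0019) after 72 h and 0.32 ± 0.16 (SE, adjusted p = 0.19) after 168 h. The corresponding male values were 0.56 ± 0.10 (SE, adjusted p = 3.3e-05) after 24 h and 0.60 ± 0.09 (SE, adjusted p = 5.7e-06) after 48 h. Thereafter it was 0.24 ± 0.09 (SE, adjusted p = 0.09) after 72 h and 0.44 ± 0.10 (SE, adjusted p = 0.001) after 168 h. The female value at 24 h was not called, but without the libraries that stand apart it was 0.48 and was called, with an adjusted p of 0.020 in limma.

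The other SSU processome proteins fell into those called early in both sexes and those called at 1 time or none. Wdr43 and Utp4, both of the subcomplex that also promotes transcription of ribosomal DNA, and Utp14a, an activator of the helicase that releases the U3 RNA in yeast, were called early in both sexes. Wdr43 had log2 changes of 0.66 (24 h), 0.70 (48 h), 0.32 (72 h) and 0.39 (168 h) in females and of 0.46 (24 h), 0.56 (48 h), 0.19 (72 h) and 0.44 (168 h) in males. Utp14a, called at 24 and 48 h in both sexes, had log2 changes of 0.51 (24 h), 0.63 (48 h), 0.21 (72 h) and 0.06 (168 h) in females and of 0.43 (24 h), 0.58 (48 h), -0.04 (72 h) and 0.30 (168 h) in males. Utp4 had log2 changes of 0.29 (24 h), 0.47 (48 h), 0.42 (72 h) and 0.03 (168 h) in females and of 0.30 (24 h), 0.24 (48 h), 0.07 (72 h) and 0.17 (168 h) in males. In females at 24 h the Utp4 call was lost in 11 of 16 fits that left out a library and the Wdr43 call in 6 of 16. Heatr1 and Utp15, of the same subcomplex as Wdr43, were called in females at 48 h only (0.41 and 0.39), both lost when 48 h replicate 7 was left out, with adjusted p of 0.1 and 0.091 in limma. Wdr75 and Utp18 were called at no time in either sex, with changes between -0.11 and 0.27.

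Of the 8 late factors of the small subunit, Riok3 (ENSMUSG00000024404, chromosome 18, 12261798 to 12290445), an atypical protein kinase, was called higher at all 4 times in both sexes. In females its signal was 1664, 2493 and 2740.1 in controls, 2332, 3066 and 3490.4 after 24 h, 2712, 3646 and 4405 after 48 h, 2602, 3848 and 4047 after 72 h and 3036, 3731 and 4415 after 168 h (lowest, median and highest). In males it was 6029.9, 6322 and 8127 in controls, 6421, 7785 and 8961 after 24 h, 7585, 8083 and 9295 after 48 h, 7648, 8337 and 10082 after 72 h and 9706, 9836 and 10174 after 168 h. The ranges at 24 h overlap widely with those of 0 h, and at 168 h every library lay above the highest control in both tables. On the log2 scale the change was 0.31 ± 0.11 (SE, adjusted p = 0.031) after 24 h and 0.60 ± 0.11 (SE, adjusted p = 3.7e-05) after 48 h in females. Later it was 0.62 ± 0.11 (SE, adjusted p = 3.3e-05) after 72 h and 0.63 ± 0.11 (SE, adjusted p = 1.8e-04) after 168 h. The male values were 0.23 ± 0.07 (SE, adjusted p = 0.01) after 24 h and 0.32 ± 0.07 (SE, adjusted p = 2.9e-04) after 48 h. At the last times it was 0.35 ± 0.07 (SE, adjusted p = 5.0e-04) after 72 h and 0.56 ± 0.07 (SE, adjusted p = 2.9e-07) after 168 h. Its highest change fell at 168 h in both sexes, which held for 1 member in females and 6 in males, and the male value of 168 h comes from a single library set. The female call at 24 h was lost without 0 h replicate 4, 7 or 8 or 24 h replicate 3, 6 or 8, and both calls at 24 h were lost under library total scaling. Riok3 is also known from maturing red cells of the mouse. Of 6 red cell markers 5 were measured; none was called in males at any time or in females at 24, 48 and 168 h, and all 5 were lower in females at 72 h, with a median log2 change of -0.95. Their summed signal ranged from 6294 to 13485 in females at 72 h and from 9739 to 31954 at 0 h; their part in the results was not tested.

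Its relatives Riok1 and Riok2, which act in the last steps of small subunit maturation, were called at fewer times. Riok2 was called at 48 h in females (0.75) and in males (0.40), and Riok1 in males at 48 and 168 h (0.29 and 0.34). Tsr1, a GTPase-like protein bound to late small subunit precursors, had log2 changes of 0.49 (24 h), 0.97 (48 h), 0.43 (72 h) and 0.03 (168 h) in females, where 48 h was called, and of 0.40 (24 h), 0.55 (48 h), -0.04 (72 h) and 0.15 (168 h) in males, where 24 and 48 h were called, the first of them lost in 5 of 15 fits that left out a library. Rrp12, an export factor of both subunits, was called in females at 48 and 72 h (0.56 and 0.37) and in males at 24 h (0.33). Its female call at 72 h was lost in 8 of 16 fits that left out a library and under quantile normalization, and its male call under library total scaling. Ltv1, needed for export in yeast, was called in females at 48 h (0.31) and in males at 24 h (0.22); the male call was lost in 11 of 15 fits that left out a library, with adjusted p up to 0.089 in limma, and under library total scaling. Bysl was called in females at 72 h alone (0.34), a call lost in 6 of 16 fits that left out a library (adjusted p up to 0.079 in limma) and under quantile normalization. Nob1, the nuclease that makes the final cut of the small subunit RNA, was called nowhere.

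Among the 10 large subunit factors, 2, 6, 2 and 0 were called higher in females after 24, 48, 72 and 168 h, and 5, 5, 1 and 1 in males. The female shares were 20%, 60%, 20% and 0%, beside 13.8%, 21%, 16.8% and 6.3% of all genes. Male shares were 50%, 50%, 10% and 10%, beside 14.8%, 16.3%, 5.61% and 11%. In females at 24, 72 and 168 h and in males at 72 and 168 h these counts are too small to set apart from all genes. Pes1, Bop1 and Wdr12 form the PeBoW complex, which processes the precursor of the large subunit RNA. Pes1 had log2 changes of 0.43 (24 h), 0.59 (48 h), 0.40 (72 h) and 0.15 (168 h) in females and of 0.35 (24 h), 0.38 (48 h), 0.09 (72 h) and 0.14 (168 h) in males. Wdr12 was called at no time, with changes of 0.19 (24 h), 0.19 (48 h), 0.08 (72 h) and 0.18 (168 h) in females and 0.19 (24 h), 0.13 (48 h), 0.01 (72 h) and 0.14 (168 h) in males.

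Bop1 (ENSMUSG00000022557, chromosome 15, 76337189 to 76361478) had a signal of 285, 367 and 418 in controls, 371, 455 and 511 after 24 h, 425, 481 and 564 after 48 h, 438, 561 and 684 after 72 h and 323, 427 and 599.7 after 168 h in females (lowest, median and highest). In males it had 581, 658 and 777 in controls, 614, 757 and 828 after 24 h, 649, 732 and 899.7 after 48 h, 707, 736 and 952 after 72 h and 615, 698 and 767 after 168 h. In females all libraries of 48 and 72 h lay above the highest control, while male ranges overlapped at every time. Its log2 change was 0.32 ± 0.10 (SE, adjusted p = 0.021) after 24 h and 0.41 ± 0.10 (SE, adjusted p = 0.0017) after 48 h in females. From 72 h on it was 0.62 ± 0.10 (SE, adjusted p = 2.0e-05) after 72 h and 0.20 ± 0.11 (SE, adjusted p = 0.26) after 168 h. For males this was 0.16 ± 0.07 (SE, adjusted p = 0.099) after 24 h and 0.15 ± 0.07 (SE, adjusted p = 0.11) after 48 h. At the later times it came to 0.22 ± 0.07 (SE, adjusted p = 0.041) after 72 h and 0.07 ± 0.07 (SE, adjusted p = 0.5) after 168 h. The male call at 72 h was lost without 0 h replicate 1, 2, 4 or 5 or 72 h replicate 1, 6 or 9, and it was not made with either part of the 72 h libraries alone, those in the 0 h set (0.25, adjusted p = 0.23 in limma) or those outside it (0.21, adjusted p = 0.092).

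Gnl3, or nucleostemin, a nucleolar GTPase abundant in dividing and stem cells, had a signal of 243, 423 and 474 in controls, 495, 558 and 885 after 24 h, 499.6, 580.1 and 1937 after 48 h, 215, 602 and 1365 after 72 h and 369, 432 and 629 after 168 h in females (lowest, median and highest). In males it had 791, 979 and 1053 in controls, 1209, 1429 and 2139 after 24 h, 1002, 1391 and 2713 after 48 h, 879, 1071 and 1179 after 72 h and 935, 1160.3 and 1621 after 168 h. All 24 h libraries lay above the highest control in both sexes, as did all female 48 h libraries, and the highest libraries of female 48 and 72 h and of male 48 h lay far above the median of their group. The change was 0.64 ± 0.26 (SE, adjusted p = 0.068) after 24 h and 0.93 ± 0.26 (SE, adjusted p = 0.0049) after 48 h in females. Thereafter it was 0.54 ± 0.26 (SE, adjusted p = 0.11) after 72 h and 0.23 ± 0.27 (SE, adjusted p = 0.67) after 168 h. Male values were 0.62 ± 0.14 (SE, adjusted p = 0.001) after 24 h and 0.63 ± 0.14 (SE, adjusted p = 6.2e-04) after 48 h. Later it was 0.13 ± 0.14 (SE, adjusted p = 0.62) after 72 h and 0.32 ± 0.14 (SE, adjusted p = 0.098) after 168 h. Markers of satellite cells, the stem cells of muscle, are given beside it: of 6 markers 2 were measured in females, both called higher at 24 and 48 h with a median log2 change of 0.55 and 0.46, and 4 in males, of which 1 was called higher at each time and 1 lower at 48 h. The summed signal of these markers was 579 to 686 in females at 48 h and 421 to 531 at 0 h, and 1241 to 1644 in males at 48 h and 1159 to 1332 at 0 h. Their part in the results was not tested.

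Pwp1 had log2 changes of 0.25 (24 h), 0.46 (48 h), 0.26 (72 h) and 0.23 (168 h) in females, called at 48 h, and of 0.35 (24 h), 0.37 (48 h), -0.02 (72 h) and 0.18 (168 h) in males, called at 24 and 48 h. Nop16 was called in males at 24 and 48 h (0.37 and 0.24) and at no time in females. Ebna1bp2 was called in females at 48 h (0.22) and in males at 24, 48 and 168 h (0.18, 0.19 and 0.22). Leaving out a library ended its female call in 9 of 16 fits, and 6 of 8 other settings did too; in males the 24 h call was lost in 11 of 15 fits, the 48 h call in 5 of 16, and all 3 under library total scaling. Las1l, an endonuclease that cuts the spacer next to the large subunit RNA, was called in females at 48 h (0.26), a call lost in 5 of 16 fits that left out a library. Nop2, a methyltransferase of the large subunit RNA, and Rrs1, which brings in the 5S ribonucleoprotein, were not called against 0 h at any time.

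Nsun2 (ENSMUSG00000021595, chromosome 13, 69681865 to 69783900) methylates cytosines in transfer RNAs and some messenger RNAs and is not a core assembly factor. It and Riok3 were the 2 members called higher at all 4 times in both sexes. Its signal in females was 620.3, 669 and 701 in controls, 803, 1000.3 and 1109.95 after 24 h, 1036, 1242 and 1476 after 48 h, 1014, 1109.9 and 1551 after 72 h and 768, 905 and 966 after 168 h (lowest, median and highest). Among males it was 1492, 1656 and 1770.1 in controls, 1873, 2259 and 2424 after 24 h, 2113, 2424 and 3358 after 48 h, 1721, 2070.4 and 2277 after 72 h and 1951, 2127 and 2533 after 168 h. In females every unloaded library, at each of the 4 times, lay above every control library, and in males the same held at 24, 48 and 168 h and for 8 of 9 libraries at 72 h. On the log2 scale the change was 0.55 ± 0.08 (SE, adjusted p = 5.8e-06) after 24 h and 0.91 ± 0.08 (SE, adjusted p = 1.7e-10) after 48 h in females. At the last times it was 0.80 ± 0.08 (SE, adjusted p = 4.2e-09) after 72 h and 0.39 ± 0.08 (SE, adjusted p = 0.0019) after 168 h. In the male table it was 0.43 ± 0.08 (SE, adjusted p = 4.0e-05) after 24 h and 0.58 ± 0.07 (SE, adjusted p = 2.0e-07) after 48 h. From 72 h on it was 0.31 ± 0.07 (SE, adjusted p = 0.0039) after 72 h and 0.37 ± 0.08 (SE, adjusted p = 4.3e-04) after 168 h. These calls held in each fit that left out a library and in each other setting tried.

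The sex difference was tested as the female log2 change minus the male log2 change at the same time, since the tables were normalized apart and levels cannot be compared between them. At 24, 48 and 168 h no member was called in limma (0.0547%, 0.301% and 0.0182% of the 10964 genes measured in both tables were called in either direction, and 651, 1329 and 424 genes had an unadjusted p under 0.05). Of all genes, 0.0365%, 0.237% and 0.00912% were called with a higher female change at those times and 0.0182%, 0.0638% and 0.00912% with a lower one. At 72 h Nsun2 and Polr1b were called, both with a higher female change, where 1.64% of all genes were called higher, 0.803% lower and 2.44% in either direction. For Nsun2 the difference was 0.49 ± 0.11 (SE, adjusted p = 0.0074), from a female change of 0.80 and a male change of 0.31. For Polr1b it was 0.43 ± 0.12 (SE, adjusted p = 0.038), from 0.54 in females and 0.11 in males. The Polr1b call was lost in 11 of 32 fits that left out a library (0 h replicate 2, 5, 6 or 7 or 72 h replicate 5 or 6 of males, 0 h replicate 1 or 8 or 72 h replicate 1, 4 or 7 of females), with adjusted p up to 0.082; the Nsun2 call was kept in all 32. Without the libraries that stand apart 6 members (15%) were called, all with a higher female change. The share of all genes called with a higher female change rose there too, to 4.61%. The median difference over the 40 members was 0.27 at 72 h, beside 0.02 over all genes, and 0.05, 0.16 and -0.02 at 24, 48 and 168 h, beside 0.03, 0.04 and 0.04. At 72 h the female set differs from that of the female controls, the female libraries are shallow, and fibroblast markers were lower in females (3 of 5, median log2 change -1.45) and not called in males (0 of 5, -0.13). Adipocyte markers went the other way, with a median of 0.53 in females (1 of 5 called higher) and -0.94 in males (1 of 5 called lower), a median female minus male difference of 1.36 with 1 of 5 called. For the fibroblast markers the median difference was -1.32 with 2 of 5 called lower, and for the red cell markers it was -0.87 with 0 of 5 called. The part of these in the sex difference was not tested.

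**Figure D4:**
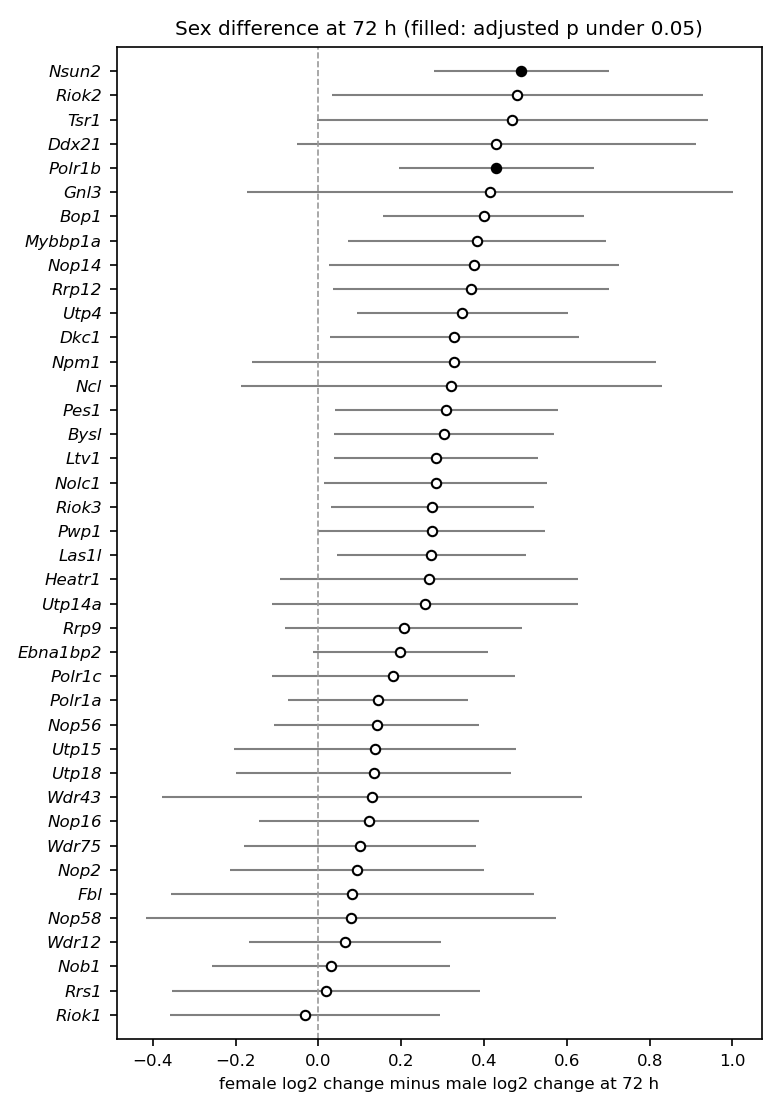
Female minus male log2 change at 72 h for each of the 40 members, with 95% intervals as horizontal lines and filled points where the adjusted p was under 0.05. Nsun2 (0.49) and Polr1b (0.43) are the 2 filled points, and several members with estimates as large, such as Riok2 (0.48) and Tsr1 (0.47), have wider intervals.

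Individual libraries differed most at 48 h. The median log2 difference of the 40 members from the 0 h mean of the table, taken per library, was -0.11 to 0.15 in female controls. It was 0.19 to 0.39 after 24 h, 0.13 to 1.01 after 48 h, 0.07 to 0.73 after 72 h and -0.05 to 0.24 after 168 h. The corresponding male values were -0.07 to 0.08 in controls, 0.14 to 0.38 after 24 h, 0.01 to 0.56 after 48 h, -0.07 to 0.11 after 72 h and 0.02 to 0.24 after 168 h. At 24 h every library lay above every control of its sex. Female 48 h replicates 6 (0.73) and 7 (1.01) and female 72 h replicate 4 (0.73) were the highest of all. The 2 male 72 h libraries of the 0 h set had 0.02 and 0.09, within the range of the other 7 (-0.07 to 0.11).

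**Figure D5:**
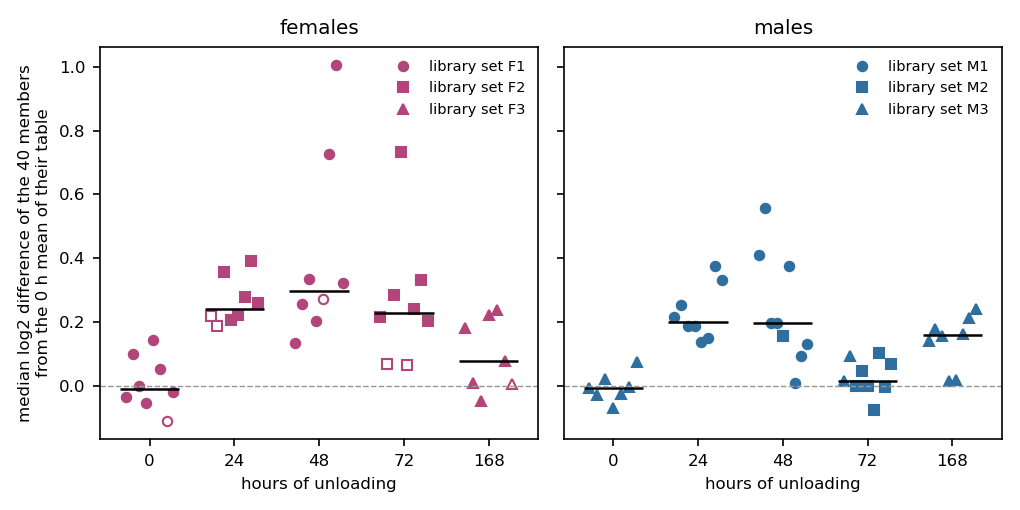
Median log2 difference of the 40 members from the 0 h mean of their table, 1 point per library by hours of unloading, females left and males right; the shape gives the library set (runs of S numbers), open points are libraries that stand apart, and lines are group medians. Female 48 h spans 0.13 to 1.01 and male 48 h 0.01 to 0.56, while male 72 h lies between -0.07 and 0.11.

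A wider list of 124 other ribosome biogenesis factors, likewise chosen with earlier results of these data known, was counted beside the members. Of 120 measured in females, 35, 63, 39 and 6 were called higher and 1, 1, 4 and 1 lower after 24, 48, 72 and 168 h. The shares called higher were 29.2%, 52.5%, 32.5% and 5%, beside 13.8%, 21%, 16.8% and 6.3% of all genes. Of 123 measured in males, 50, 51, 5 and 22 were called higher and 5, 2, 2 and 3 lower. Here the shares were 40.7%, 41.5%, 4.07% and 17.9%, beside 14.8%, 16.3%, 5.61% and 11%, so that at 168 h in females and at 72 h in males the share of the list lay below that of all genes. Those with the smallest p in females were Taf1c, a subunit of the promoter factor of RNA polymerase I (0.67 ± 0.11 (SE, adjusted p = 1.3e-05) at 72 h), Utp3 (0.61 at 48 h), Ddx27 (1.02 at 48 h) and Efl1 (0.56 at 48 h). In males they were Lsg1, a GTPase of late large subunit maturation (0.43 ± 0.07 (SE, adjusted p = 5.5e-06) at 24 h), Ddx56 (0.85 at 24 h), Wdr46 (0.52 at 24 h) and Ddx24 (0.38 at 24 h). Taf1c was called in females at all 4 times.

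Of 11 genes of the Myc family and its partners, 8 were measured. Myc itself was called higher in males at 24 h, by 0.61 ± 0.22 (SE, adjusted p = 0.036), and at 48 h, by 0.69 ± 0.22 (SE, adjusted p = 0.013). In females its change was -0.01 ± 0.26 (SE, adjusted p = 0.98) at 24 h and -0.12 ± 0.26 (SE, adjusted p = 0.75) at 48 h. The female minus male difference for Myc was -0.62 ± 0.35 (SE, adjusted p = 0.85) at 24 h and -0.81 ± 0.35 (SE, adjusted p = 0.31) at 48 h, so the sexes were not shown to differ. Max, the partner that Myc binds DNA with, was called higher in females at 24 and 48 h (0.32 and 0.41) and in males at 24, 48 and 168 h (0.31, 0.22 and 0.29). Mnt, a repressor that competes with Myc for Max, was called in females at 48 h (0.44) and in males at 24 and 48 h (0.40 and 0.40). Mxd4, a repressor of the same kind, was called in females at 72 h (0.30) and in males at all 4 times (between 0.18 and 0.22), and Mxd1 in males at 72 h (0.36). Mga was lower in males at 24 h (-0.37).

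In the authors' deposited table of DESeq2 results, 16, 27, 17 and 2 members were higher in females at 24, 48, 72 and 168 h at an adjusted p under 0.05, and 21, 19, 3 and 11 in males. Over all genes, the authors' deposited table has 17.2%, 24.7%, 19.5% and 8.39% higher in females and 15.3%, 17%, 6.3% and 11.9% in males. In the authors' deposited table a single member, Dkc1, was lower in males at 24 and 72 h.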

How the data were processed

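RNA-seq of gastrocnemius muscle gave 80 libraries, 39 female and 41 male. The deposited values are a normalized signal per gene, with a table for each sex; that they are estimated reads divided by 1 factor per library was worked out from the steps between low values, in which 53.9% to 71.7% of values per library were whole. The authors' deposited comparison sheet gives a ratio of the unloaded mean over the 0 h mean and p-values with their FDR, made with DESeq2. The submitters' processing notes name STAR 2.7.8a, Partek, DESeq2 and the builds mm10 and mm39, with no role or order. The counts behind the signal were not used here, so limma 3.58.1 in R 4.3.3 replaced the count test planned for counts. It was run with trend and robust settings on log2 of the signal plus a pseudocount of 1, and no filter on low values was added. The deposited genes all reach a signal of 100 in at least 1 library (lowest row maximum 100.005 in females and 100.023 in males). All genes therefore means the genes above that limit, and a gene can pass it through a single group.

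All 5 groups of a table were fitted together, and p-values were adjusted across the genes of the table (Benjamini-Hochberg), with calls at 0.05. The sex difference came from a joint fit of 10 groups on 10964 genes. Members with values in every group were chosen by a rule: in each table the 4 called members with the smallest adjusted p in each direction, members called at all 4 times or in opposite directions, and those called for a sex difference. The members and gene lists were chosen with earlier results of these data known. Alternatives were another pseudocount (10), a mean of at least 100, library total scaling, quantile normalization, array weights, no trend, only the groups compared, fewer library sets and each library left out; 1 of them, male 48 h without the library of another set, was chosen after seeing the data.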

Additional observations from a re-analysis of the deposited data

Results flagged for a closer look

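In 9 of 90 groups of 4 to 10 libraries a single library lay far from the others by Dixon's criterion; chance flags about 1 group in 20. In females at 72 h, replicate 4 was the high library for Nsun2 (a normalized signal of 1550.87), Mybbp1a (2638.85) and Nop14 (786.062), and for the median log2 difference of the 40 members from 0 h (0.7325). Replicate 5 of the same group, which stands apart from its group, was the low library for Riok3 (2601.98) and Dkc1 (266.622). The other 2 low values came from female libraries that stand apart, 296.997 for Dkc1 in 48 h replicate 5 and 2139.57 for Ncl in 168 h replicate 7. In males Bop1 was high in 48 h replicate 1 (899.685).

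The female minus male log2 change at 72 h differed from 0 in limma's joint fit for Nsun2 (0.4894) and Polr1b (0.4297). No explanation of these values was tested.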

How the results depend on the processing

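No called member changed sign under any alternative run. Counts of members called that moved by over 1.5 times were, with array weights, 21 in females at 24 h (12 as reported), 19 at 72 h (11), 5 at 168 h (2) and 15 in males at 168 h (9). The shares of members called higher were then 52.5%, 47.5% and 10% in females and 35% in males. Beside them stood 20.8%, 22.8%, 16.5% and 15.7% of all genes, so the female 168 h share lay below that of all genes. With library total scaling and quantile normalization, females at 24 h had 4 and 5. Without the libraries that stand apart females at 72 h had 17 (42.5% higher, beside 22.8% of all genes). With only the groups compared females at 168 h had 5 (10% higher, beside 10.5% of all genes). Both counts of 5 at 168 h hold 4 higher and 1 lower, Fbl. Between female 72 h and 24 h the 2 calls became 4 with a mean of at least 100, 6 with library total scaling, 0 with only the groups compared and 1 without the libraries that stand apart. The shares of members called higher were 7.69%, 15%, 0% and 2.5% in these settings. They were near or below those of all genes, 7.08%, 16.3%, 1.98% and 3.23%. The sex difference had 1 call at 48 h with array weights (0), 2.5% of members beside 0.976% of all genes called higher. At 72 h it had 6 with array weights and 6 without the libraries that stand apart (2). Each 6 is 15% of members, beside 5.51% and 4.61% of all genes called higher. Males at 72 h had 2 calls with only the libraries of the 0 h set (4), 5% of members beside 1.98% of all genes called higher. The cause was not tested. Leaving out each library in turn gave 6 to 14 calls in females at 24 h, 18 to 25 at 48 h, 8 to 17 at 72 h, 2 to 2 at 168 h and 0 to 4 between 72 h and 24 h; 18 to 23, 18 to 20, 2 to 4 and 8 to 12 in males at 24, 48, 72 and 168 h and 0 to 0 between 48 h and 24 h; and 1 to 3 for the sex difference at 72 h.

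Library total scaling put the median log2 change of all genes between female 72 h and 24 h at 0.12 (-0.03 as reported); there the members' values stand relative to that shift. It changed the split of higher and lower genes to 913 and 1382 in females at 24 h (1530 and 1205 as reported), 2433 and 972 at 72 h (1861 and 1463) and 1807 and 311 between 72 h and 24 h (710 and 648). In males at 24 h it gave 1144 and 2369 (1896 and 1847), and for the sex difference at 72 h 185 and 44 (180 and 88). Quantile normalization gave 1160 and 1539 in females at 24 h, 580 and 678 at 168 h (697 and 485), 862 and 482 between 72 h and 24 h, and 132 and 106 for the sex difference at 72 h. Counts of all genes called also moved by over 1.5 times. Array weights gave 2103 in males at 72 h (1392), 3120 in females at 168 h (1182) and 972 for the sex difference at 72 h (268). With only the groups compared, females at 168 h had 2054 and female 72 h against 24 h 428 (1358), the last being 816 without the libraries that stand apart. Without those libraries the sex difference at 72 h had 813. Males at 72 h had 516 with the libraries of the 0 h set and 816 with the others. No paired analysis was possible because replicate numbers were given in accession order.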
